A study of Homo sapiens with 4 samples.

Results

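The alpha- and beta-tubulin isotypes are the genes whose products pair into the heterodimers that microtubules are built from. The rows of TUBA1A, TUBA1B, TUBA1C, TUBA4A, TUBB, TUBB2A, TUBB2B, TUBB3, TUBB4B and TUBB6 were taken by symbol, 10 genes of 58735 in the table, 4 of them alpha and 6 beta. The rule goes by gene name and uses no measured value, although the set was proposed with earlier results of these data known. All libraries came from untreated H1299 cells, an established human line of non-small cell lung cancer, grown in RPMI1640 with 10% serum. The series compares 2 libraries of TTC28 knockout cells, made with CRISPR/Cas9, with 2 libraries of WT (wild-type) cells. TTC28 encodes a large protein with tetratricopeptide repeats. The labels do not say whether the knockout is 1 clone or a mixed population, which part of TTC28 was edited, or whether the 2 libraries of a group came from separate cultures. The p-values therefore measure only the spread between these libraries, which may be technical.

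Alpha- and beta-tubulin are made in nearly equal amounts as proteins, folded by the chaperonin CCT with help from prefoldin, and joined by the tubulin folding cofactors. Isotypes resemble each other over most of their length and differ most in the acidic tail at the C terminus, where enzymes add or remove glutamate, glycine or tyrosine. Cells also lower their tubulin mRNAs when free tubulin is high. The protein TTC5 binds the first residues of the nascent tubulin chain and, with SCAPER, brings in the CCR4-NOT deadenylase. TUBA1B, TUBB and TUBB4B are the widely expressed isotypes. TUBA1A, TUBB2A, TUBB2B and TUBB3 are best known from neurons, and TUBB6 from a wide range of tissues at lower levels.

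The coding ends of the beta isotypes show how far their transcripts can be told apart and which tails the measured mRNAs encode. The last 20 sense codons and the stop codon of the 5 higher beta isotypes are given below, 5′ to 3′ in the sense of the gene, from the main coding transcript of GENCODE release 29 on hg38. Capitals mark the glutamate codons GAA and GAG.
TUBB: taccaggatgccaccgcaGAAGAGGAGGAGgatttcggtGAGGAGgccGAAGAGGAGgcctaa
TUBB4B: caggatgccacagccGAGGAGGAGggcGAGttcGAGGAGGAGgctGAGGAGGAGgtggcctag
TUBB6: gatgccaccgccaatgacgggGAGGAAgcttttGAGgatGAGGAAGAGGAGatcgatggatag
TUBB2A: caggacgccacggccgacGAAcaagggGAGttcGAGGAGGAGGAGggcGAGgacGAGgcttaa
TUBB2B: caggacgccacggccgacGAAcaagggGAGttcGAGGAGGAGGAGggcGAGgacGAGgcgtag
These stretches lie at chr6:30724335-30724397 (plus strand, TUBB), chr9:137243494-137243556 (plus, TUBB4B), chr18:12326068-12326130 (plus, TUBB6), chr6:3153863-3153925 (minus, TUBB2A) and chr6:3224751-3224813 (minus, TUBB2B).

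TUBB2A and TUBB2B were 98.1% identical over the coding sequence and 96.8% over the tail. The coding sequence of TUBB6 was 80.9% identical to that of TUBB, 83.2% to TUBB4B, 86.2% to TUBB2A, 86.1% to TUBB2B and 87.5% to TUBB3, and its tail was 58% identical to that of TUBB and 38.1% to that of TUBB3. Among the alpha isotypes, the whole coding sequences of TUBA1A and TUBA1B were 97.2% identical, and those of TUBA1A and TUBA1C 95.9%. At the other end, the first 4 codons read atgCGTGAGTGC in the 3 TUBA1 genes, atgAGGGAAATC in TUBB and TUBB4B, and atgAGGGAGATC in TUBB3 and TUBB6, with the codons after the start in capitals. The beta start in TUBB2A was atgCGCGAGATC and in TUBB2B atgCGTGAGATC. All these beta starts encode the same residues.

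Levels are given in FPKM (fragments divided by the gene's length in kilobases and by the size of the library), as the authors deposited them. The libraries held 25120500 to 28885443 counts, and the 10 isotypes took 0.311% and 0.301% of the counts in the knockout libraries, against 0.298% and 0.296% in the WT libraries. The epithelial keratins KRT8 and KRT18 and the mesenchymal filament gene VIM were well expressed in all 4 libraries. PTPRC, PECAM1 and GFAP lay under 0.1 FPKM in each library. SYP had 0.385 and 0.306 FPKM in knockout and 0.995 and 1.08 FPKM in WT libraries, and COL1A1 had 0.424 and 0.450 FPKM in knockout and 0.124 and 0.224 FPKM in WT libraries. Mitochondrial genes took 8.611% and 10.16% of the counts in knockout, against 6.07% and 5.867% in WT libraries. The part of these in any tubulin difference was not tested. TTC28 itself had 2.96 and 2.99 FPKM in knockout, against 4.88 and 5.44 FPKM in WT libraries (log2 fold change -0.79, SE 0.0764; edgeR quasi-likelihood test, Benjamini-Hochberg adjusted p = 2.78e-06). Its transcript thus remained in the knockout libraries, and a gene-level count does not show whether it was edited.

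Of the 10 isotypes, TUBA1A and TUBB6 rose in knockout cells by about the same factor, while the closely related TUBB2A and TUBB2B fell. The isotypes with the highest levels, TUBB, TUBB4B and TUBA1B, stayed within 0.04 of 0 on the log2 scale. In the test, 9 isotypes had at least 1 FPKM in 2 or more libraries and entered edgeR's fit of 13079 genes, with TMM scaling (which sets library sizes so that most genes do not differ). With an adjusted p under 0.05, 2 were higher, 2 lower and 5 did not pass. Over all tested genes 50.3% passed, 25.1% higher and 25.2% lower, so 4 of 9 is close to the background. The median log2 fold change was -0.04 over the tested isotypes and 0.00 over all tested genes, and the median size of a change over all genes was 0.27. The groups' FPKM did not overlap for 6 of the 9 tested isotypes, 2 of them higher and 4 lower, against 75.5% of all tested genes (37.6% higher and 37.9% lower). In this bulk RNA, a change in the share of cells with a transcript and a change in its amount per cell cannot be told apart.

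**Figure D1:**
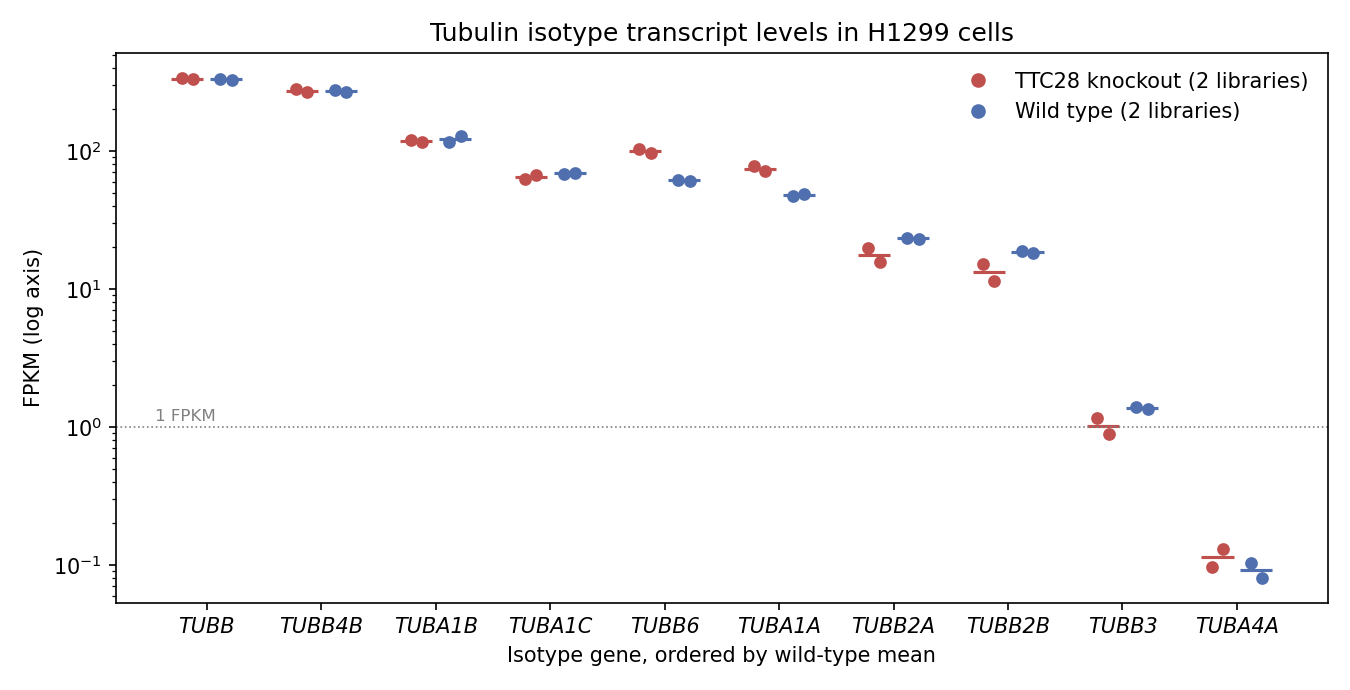
FPKM on a log axis of the 10 isotype genes, ordered by WT mean, with 1 point per library, TTC28 knockout (red) left of WT (blue), and a bar at each group's mean. TUBA1A and TUBB6 are higher in both knockout libraries, TUBB2A and TUBB2B lower, and TUBA4A lies far under the dotted line at 1 FPKM in all 4 libraries.

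TUBB6, a beta isotype whose product is known to make microtubules less stable, had 103 and 97.2 FPKM in knockout cells, against 61.8 and 60.4 FPKM in WT cells. Both knockout libraries lay far above both WT libraries. The means were 100.2 ± 4.27 FPKM in knockout and 61.1 ± 0.958 FPKM in WT cells (SD, n = 2 each). The rise was 1.64-fold (log2 fold change 0.72, SE 0.0628, 95% interval 0.58 to 0.85; edgeR quasi-likelihood test, Benjamini-Hochberg adjusted p = 1.22e-06). Among 19938 nuclear protein-coding genes ranked by mean FPKM, TUBB6 stood at place 271 in knockout and 575 in WT cells. The gene lies at chr18:12307669-12344320 on the plus strand of hg38. Of its 4117 exonic bases, 837 (20.3%) overlap exons of AFG3L2, a mitochondrial protease gene on the other strand. AFG3L2 had 11.5 and 11.2 FPKM in knockout and 11.4 and 11.5 FPKM in WT cells. No 100-base stretch of the main TUBB6 transcript occurred in the transcripts of another gene searched (0%), the lowest share among the isotypes. For 50-base stretches the share was 0.993%. That search left out non-tubulin genes that overlap the isotype on the genome, here AFG3L2 among them.

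TUBA1A, the alpha isotype that dominates in developing neurons, had 77.2 and 71.8 FPKM in knockout cells, against 46.9 and 48.9 FPKM in WT cells. The groups did not overlap, and the lower knockout library was well above the higher WT library. The means were 74.5 ± 3.79 FPKM in knockout and 47.9 ± 1.44 FPKM in WT cells (SD, n = 2 each). The rise was 1.56-fold (95% interval 1.42 to 1.71; log2 fold change 0.64, SE 0.0627; edgeR quasi-likelihood test, Benjamini-Hochberg adjusted p = 3.24e-06). TUBA1A lies at chr12:49184796-49189324 (minus strand), and its neighbours, 25 tested genes on each side, had a median log2 fold change of 0.32. With that median removed, TUBA1A was 0.32 above them. The part of the region in its rise was not tested.

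TUBA1B, the most abundant alpha isotype, had 121 and 116 FPKM in knockout cells, against 117 and 128 FPKM in WT cells. The groups overlapped, with a fold of 0.972 (95% interval 0.881 to 1.07; log2 fold change -0.04, SE 0.0659; edgeR quasi-likelihood test, Benjamini-Hochberg adjusted p = 0.637). TUBA1C, another alpha isotype of dividing cells, had 63.1 and 66.7 FPKM in knockout cells, against 68.0 and 69.6 FPKM in WT cells. Both knockout libraries lay just under both WT libraries, with a fold of 0.946 (95% interval 0.861 to 1.04; edgeR quasi-likelihood test, Benjamini-Hochberg adjusted p = 0.302). TUBA1B (chr12:49127782-49131397, minus strand) and TUBA1C (chr12:49188736-49274603, plus strand) lie in the same stretch of chromosome 12 as TUBA1A. Their neighbours had median log2 fold changes of 0.35 and 0.34, and with these removed the log2 fold changes were -0.39 for TUBA1B and -0.42 for TUBA1C. The 3 adjacent alpha genes thus did not share 1 fold change: the interval of TUBA1A, 0.50 to 0.77, lay clear of those of TUBA1B, -0.18 to 0.10, and TUBA1C, -0.22 to 0.05, although the differences between the genes were not themselves tested. Within each library the FPKM ratio of TUBA1A to TUBA1B was 0.636 and 0.617 in knockout, against 0.402 and 0.382 in WT cells. The ratio of TUBA1A to TUBA1C was 1.22 and 1.08 in knockout, against 0.689 and 0.704 in WT cells. Whether it passes 1 depends on the length correction, since the ratio of raw counts was 0.903 and 0.795 in knockout, against 0.509 and 0.520 in WT cells.

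The 3 TUBA1 rows are not wholly independent. TUBA1A and TUBA1C overlap by 490 exonic bases on opposite strands, 14.3% of the exonic length of TUBA1A and 10.6% of that of TUBA1C, and whether the authors counted by strand is not stated by any source used here. Of all 100-base stretches of the main transcript, 26.6% of those of TUBA1A, 37.2% of TUBA1B and 11.5% of TUBA1C also occur in transcripts of another gene. For 50-base stretches the shares were 51.8% for TUBA1A, 62.7% for TUBA1B and 25.1% for TUBA1C. Reads from such stretches may have been split or dropped. With the counts of the 3 genes summed into 1 row, the log2 fold change was 0.09 (SE 0.0664; edgeR quasi-likelihood test, Benjamini-Hochberg adjusted p = 0.257).

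TUBB, the main beta isotype of most cells, had 338 and 331 FPKM in knockout cells, against 334 and 326 FPKM in WT cells. The groups overlapped and the fold was 1.02 (95% interval 0.919 to 1.12; log2 fold change 0.02, SE 0.0667; edgeR quasi-likelihood test, Benjamini-Hochberg adjusted p = 0.804). TUBB4B, a beta isotype abundant in cilia as well as in dividing cells, had 282 and 266 FPKM in knockout cells, against 275 and 268 FPKM in WT cells. Its groups overlapped too, with a log2 fold change of 0.01 (SE 0.0647, 95% interval -0.12 to 0.15; edgeR quasi-likelihood test, Benjamini-Hochberg adjusted p = 0.867). TUBB (chr6:30720201-30725426, plus strand) and TUBB4B (chr9:137241213-137243707, plus strand) ranked 56 and 66 by mean FPKM in knockout cells, and 57 and 73 in WT cells. Few of their 100-base stretches occur in other genes, 5.1% for TUBB and 2.86% for TUBB4B. For 50-base stretches the shares were higher, 18.2% for TUBB and 9.89% for TUBB4B.

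TUBB2A and TUBB2B, a near-identical pair on chromosome 6 (chr6:3153669-3157526 and chr6:3224261-3231730, both on the minus strand), were both lower in knockout cells. TUBB2A had 19.8 and 15.7 FPKM in knockout cells, against 23.5 and 23.2 FPKM in WT cells. TUBB2B had 15.1 and 11.5 FPKM in knockout cells, against 18.8 and 18.1 FPKM in WT cells. In both genes the groups did not overlap, and knockout replicate 2 lay well under knockout replicate 1. The log2 fold change of TUBB2A was -0.39 (SE 0.0996, 95% interval -0.61 to -0.18; edgeR quasi-likelihood test, Benjamini-Hochberg adjusted p = 0.0053). That of TUBB2B was -0.46 (SE 0.108, 95% interval -0.70 to -0.23; edgeR quasi-likelihood test, Benjamini-Hochberg adjusted p = 0.00305). The size of both falls rested in part on knockout replicate 2: without it the log2 fold changes were -0.24 and -0.29 and still passed the test.

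The TUBB2A and TUBB2B rows cannot be read as separate measurements, since 56.4% and 46.2% of their 100-base stretches occur in another gene, mostly in each other. Their FPKM ratio, TUBB2B over TUBB2A, was 0.766 and 0.733 in knockout and 0.800 and 0.781 in WT cells. Summed into 1 row, the pair had a log2 fold change of -0.43 (SE 0.0932; edgeR quasi-likelihood test, Benjamini-Hochberg adjusted p = 0.00192). TUBB2B also shares 174 exonic bases with PSMG4, a proteasome assembly gene on the other strand. PSMG4 had 1162 and 828 counts in knockout, against 1288 and 1366 counts in WT libraries, and fell too (log2 fold change -0.39; edgeR quasi-likelihood test, Benjamini-Hochberg adjusted p = 0.00324). The part of this overlap in the fall of TUBB2B was not tested.

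TUBB3, the beta isotype used as a marker of neurons and often measured in lung cancer, was near the limit of the test at 1.16 and 0.887 FPKM in knockout cells, against 1.39 and 1.36 FPKM in WT cells. These levels rest on 143 and 96 counts in knockout and 161 and 164 counts in WT libraries. Both knockout libraries were under both WT libraries, but the log2 fold change of -0.42 (SE 0.172, 95% interval -0.79 to -0.05) did not pass over all genes (edgeR quasi-likelihood test, Benjamini-Hochberg adjusted p = 0.059). It passed under several other settings, among them the fit without knockout replicate 1, with a log2 fold change of -0.62 (edgeR, Benjamini-Hochberg adjusted p = 0.0186). Without knockout replicate 2 it was -0.25 and did not pass. Over all its alternatives the adjusted p ran from 0.0086 to 0.301. Its neighbours had a median log2 fold change of -0.23, and with that removed TUBB3 was at -0.18. The part of the neighbourhood was not tested. TUBB3 lies at chr16:89921392-89938761 (plus strand), and 35.8% of its exonic length is shared on the same strand with the gene model AC092143.1, which had 0 counts in both knockout libraries and 6 and 2 counts in the WT libraries.

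TUBA4A, an alpha isotype without an encoded tyrosine at its end, had 0.0968 and 0.130 FPKM in knockout cells, against 0.103 and 0.0810 FPKM in WT cells. That is 11 and 13 counts in knockout and 11 and 9 counts in WT libraries, under the minimum for the test. The groups overlapped. In a fit without that minimum the log2 fold change was 0.28 with an SE of 0.545, so a difference at this depth was not detectable. The gene lies at chr2:219249711-219278170 on the minus strand.

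**Figure D2:**
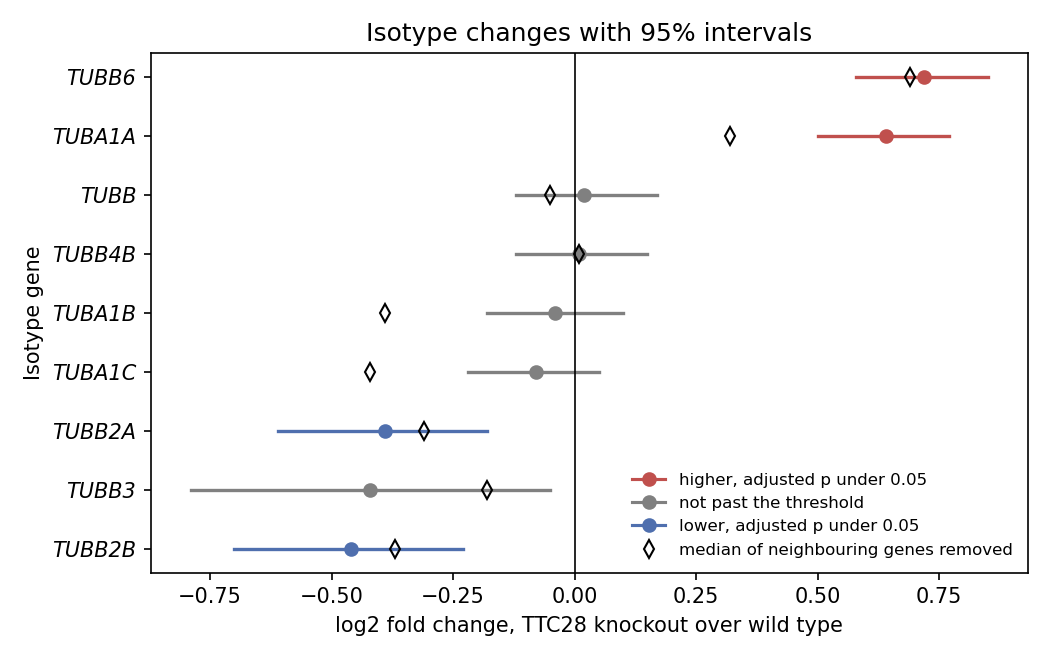
log2 fold change of the 9 tested isotypes, TTC28 knockout over WT, as circles with 95% intervals, red where higher, blue where lower and grey where the adjusted p did not pass 0.05. Open diamonds give the value with the median of neighbouring genes removed. This moves TUBA1A to 0.32, TUBA1B to -0.39, TUBA1C to -0.42 and TUBB3 to -0.18, and leaves TUBB6 at 0.69.

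Ordered by level, the isotypes in knockout cells ran TUBB, TUBB4B, TUBA1B, TUBB6, TUBA1A, TUBA1C, TUBB2A, TUBB2B, TUBB3 and TUBA4A. In WT cells the order was TUBB, TUBB4B, TUBA1B, TUBA1C, TUBB6, TUBA1A, TUBB2A, TUBB2B, TUBB3 and TUBA4A. No neighbours in either order overlapped between their 2 libraries. The order depends on the length used. FPKM divides by all exonic bases of a gene, 4117 for TUBB6, while its main coding transcript has 2064. Divided by the main coding transcript, TUBB6 had 206 and 194 FPKM in knockout and 123 and 121 FPKM in WT cells. On that scale it stood above TUBA1C in both genotypes, since TUBA1C had 97.4 and 103 FPKM in knockout and 105 and 107 FPKM in WT cells.

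The shares of each isotype in the summed FPKM of its pool do not depend on library scaling. TUBA1A made up 29.5% and 28.2% of the alpha pool in knockout cells, against 20.2% and 19.9% in WT cells, a difference of 8.79 percentage points. TUBA1B made up 46.3% and 45.6% in knockout, against 50.4% and 51.9% in WT cells. TUBA1C made up 24.1% and 26.2% in knockout, against 29.3% and 28.2% in WT cells. TUBA4A stayed at or under 0.0512% in every library. So the alpha pool of knockout cells held a larger part of TUBA1A, with neither library of 1 genotype inside the range of the other for the 3 TUBA1 genes. Since shares add up to a whole, a larger share of 1 isotype lowers those of the others.

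In the beta pool, TUBB6 made up 13.6% and 13.5% in knockout cells, against 8.64% and 8.67% in WT cells, a difference of 4.87 percentage points. The libraries of a genotype differed far less than the genotypes did. TUBB made up 44.5% and 45.9% in knockout, against 46.8% in each WT library. TUBB4B made up 37.1% and 36.8% in knockout, against 38.5% and 38.4% in WT cells. TUBB2A and TUBB2B together stayed a small part, TUBB2A with 2.60% and 2.18% in knockout and 3.28% and 3.33% in WT cells, TUBB2B with 1.99% and 1.59% in knockout and 2.63% and 2.60% in WT cells. TUBB3 was at or under 0.195% throughout. Each of these 5 shares was lower in both knockout libraries than in both WT libraries. Counted by main transcript length instead, the TUBB6 share was 19.9% and 19.7% in knockout and 13.0% in each WT library, and TUBA1A had 27.5% and 26.3% in knockout and 18.8% and 18.4% in WT cells.

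**Figure D3:**
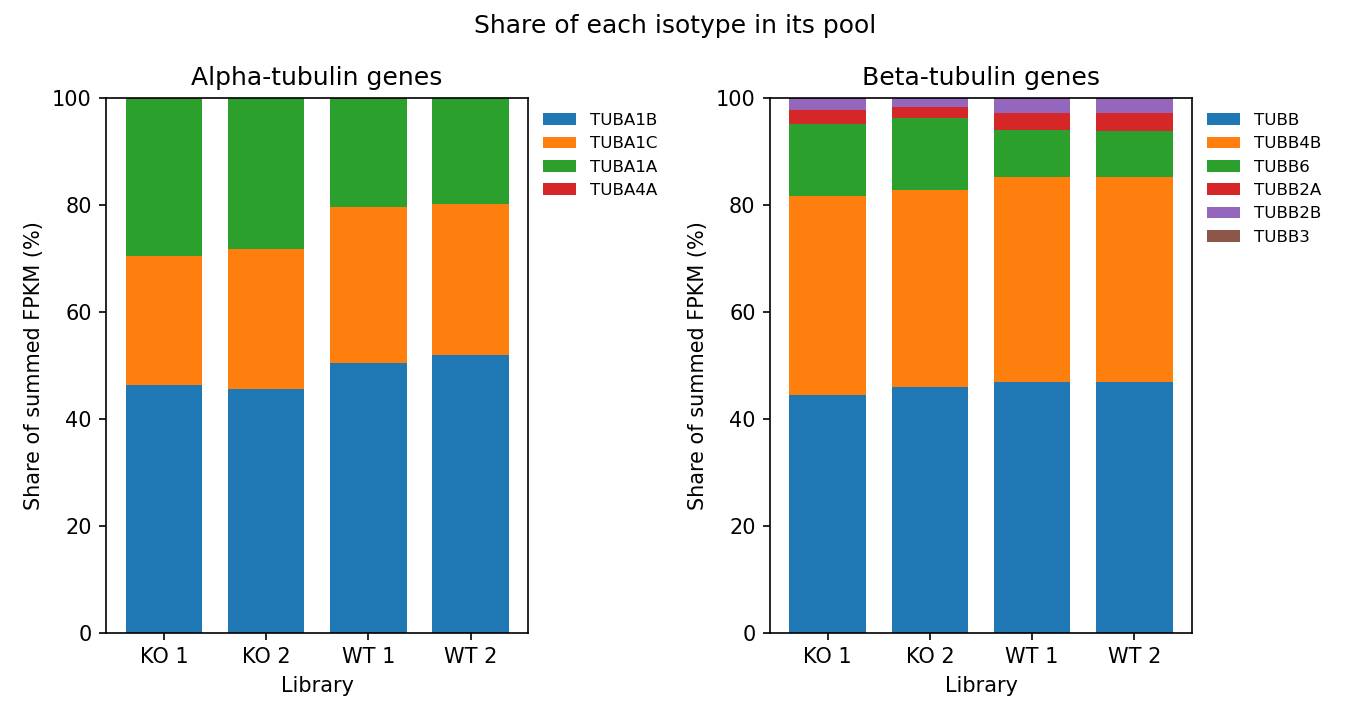
Stacked shares, in percent of summed FPKM, of the alpha genes (left) and the beta genes (right) in each of the 4 libraries, knockout libraries left of WT libraries. TUBA1A widens to 29.5% and 28.2% in knockout, against 20.2% and 19.9% in WT cells, and TUBB6 to 13.6% and 13.5%, against 8.64% and 8.67%.

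The pools as a whole differed little. The alpha genes summed to 262 and 255 FPKM in knockout cells, against 232 and 247 FPKM in WT cells. The beta genes summed to 759 and 722 FPKM in knockout cells, against 715 and 697 FPKM in WT cells. These are log2 ratios of group means of 0.11 for alpha and 0.07 for beta, and both change sign, to -0.05 and -0.09, when each library's FPKM are scaled to the same sum (TPM), so no direction is given for the pools. That scaling also shifts the median log2 fold change of all genes by -0.17, because all FPKM sum to 332752 and 339220 in knockout and 301778 and 298029 in WT libraries. The ratio of summed beta to summed alpha FPKM was 2.90 and 2.83 in knockout, against 3.08 and 2.83 in WT cells. This ratio depends on the gene lengths, and by main transcript length it was 2.06 and 2.02 in knockout, against 2.13 and 1.94 in WT cells. The genotypes overlapped on both scales.

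The table holds 48 further rows with symbols that begin with TUBA or TUBB, isotypes of other tissues and pseudogenes. They added 559 and 507 counts in knockout and 424 and 405 counts in WT libraries, at most 0.665% of all alpha and beta counts of a library. Among them, TUBB4A, a beta isotype best known from brain, was low in all libraries but rose in knockout cells, with a larger fold change than any of the 10 isotypes (the difference from them was not tested). It had 2.70 and 2.91 FPKM in knockout cells, against 1.49 and 1.45 FPKM in WT cells, without overlap (log2 fold change 0.93, SE 0.140; edgeR quasi-likelihood test, Benjamini-Hochberg adjusted p = 0.000111). The pseudogene TUBBP1, which shares stretches with TUBB, had 2.94 and 3.23 FPKM in knockout and 3.39 and 2.83 FPKM in WT cells. TUBB2BP1, next to the TUBB2 genes, had 1.24 and 0.705 FPKM in knockout and 1.14 and 1.01 FPKM in WT cells, and its groups overlapped. TUBA3D had 18 and 24 counts in knockout and 9 and 17 counts in WT libraries, TUBA8 had 9 and 5 in knockout and 1 in each WT library, and TUBB1 had 23 and 22 in knockout and 16 and 23 in WT libraries. TUBA3D, TUBA8 and TUBB1 were too low for the test.

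Among the 12 genes listed as other tubulins, 5 were tested, with 1 higher, 2 lower and 2 not past (median log2 fold change 0.05, against 0.00 over all tested genes). For this and the lists that follow, the shares over all tested genes were 25.1% higher and 25.2% lower. TUBB4A was the one that rose. TUBG1, the gamma-tubulin that seeds microtubules, fell (log2 fold change -0.45; edgeR quasi-likelihood test, Benjamini-Hochberg adjusted p = 0.000255). TUBE1, the epsilon-tubulin of centrioles, fell as well (log2 fold change -0.35; edgeR quasi-likelihood test, Benjamini-Hochberg adjusted p = 0.00182). TUBD1, the delta-tubulin of centrioles, had a log2 fold change of 0.13 and did not pass.

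The chaperonin and prefoldin list, the machinery that folds new tubulin and actin, was the list with the lowest median. Of 15 tested genes 1 was higher, 9 lower and 5 not past, with a median log2 fold change of -0.39, against 25.1% higher, 25.2% lower and a median of 0.00 over all tested genes. Of the 8 CCT chaperonin subunits, 6 fell and 2 did not pass, and 50.3% of all tested genes passed in either direction. CCT5 and CCT6A each had a log2 fold change of -0.84 and CCT8 one of -0.51 (edgeR quasi-likelihood test, Benjamini-Hochberg adjusted p = 2.94e-07, 4.87e-07 and 1.79e-05). PFDN2, a prefoldin subunit, fell by 0.63 on the log2 scale, while 3 of 6 prefoldin subunits fell and 1 rose. The levels of neighbouring genes moved with some of these: with the median of each gene's neighbours removed, the median of the CCT subunits was -0.22 in place of -0.42, and the 6 that fell ranged from -0.55 to -0.17. The part of the neighbourhood was not tested.

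The tubulin folding cofactors, which take tubulin from the chaperonin and form the heterodimer, had 7 genes, of which 6 were tested, 2 higher, 2 lower and 2 not past (median log2 fold change 0.02). ARL2, a small GTPase that works with the cofactors, fell by 0.49 and TBCA, which holds beta-tubulin, by 0.24 on the log2 scale. TBCC and TBCD, parts of the cofactor complex, rose with log2 fold changes of 0.42 and 0.26. Without WT replicate 1, 2 of the 6 passed in place of 4.

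Of the 12 genes of tubulin mRNA autoregulation and CCR4-NOT, all tested, 3 were higher, 1 lower and 8 not past (median log2 fold change 0.04). The deadenylase subunits CNOT6 and CNOT6L rose (log2 fold changes 0.39 and 0.40; edgeR quasi-likelihood test, Benjamini-Hochberg adjusted p = 0.000244 and 0.00112). CNOT11 rose by 0.22 and CNOT3 fell by 0.25 on the same scale. The neighbours of CNOT11 had a median of 0.49, and with that removed CNOT11 was at -0.26. With their own neighbours' medians removed, CNOT6 was at 0.47, CNOT6L at 0.31 and CNOT3 at -0.24. Fewer of these 12 passed without WT replicate 2. On the TPM scale 7 of the 12 passed in place of 4, where 7228 of all 13079 genes passed in place of 6581. TTC5 and SCAPER, the parts that recognize the nascent chain, had log2 fold changes of -0.16 and -0.15 and did not pass. The 3 TUBA1 genes share their first 4 codons, and the beta isotypes differ there only in codons for the same residues. Within both groups the log2 fold changes were unlike. The values were 0.64 for TUBA1A beside -0.04 for TUBA1B and -0.08 for TUBA1C. Among the beta isotypes they were 0.72 for TUBB6, -0.39 for TUBB2A and -0.46 for TUBB2B. TUBB (0.02), TUBB4B (0.01) and TUBB3 (-0.42) did not pass. These differences between genes, and any part of autoregulation in them, were not tested.

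The tubulin modifying enzymes, which work on tubulin tails and on other sites, had 27 genes, of which 17 were tested, 3 higher, 4 lower and 10 not past (median log2 fold change 0.03). TTL, the tubulin tyrosine ligase, rose (log2 fold change 0.57, SE 0.0645; edgeR quasi-likelihood test, Benjamini-Hochberg adjusted p = 1.17e-05). AGBL2, a carboxypeptidase that trims tubulin tails, also rose, with a log2 fold change of 0.82. TTLL12, a member of the tyrosine ligase-like family, fell by 0.62 and the polyglutamylase TTLL11 by 0.90 on the log2 scale. AGBL2 and TTLL11 were near the minimum for the test. Each reached 1 FPKM only in the libraries of the group where it was higher, so the filter itself favoured a difference in these genes. AGBL2 had 1.39 and 1.41 FPKM in knockout and 0.766 and 0.824 FPKM in WT cells (SE 0.151). TTLL11 had 0.670 and 0.568 FPKM in knockout and 1.12 and 1.20 FPKM in WT cells (SE 0.203). For that reason no direction is read from TTL and TTLL11 for the enzymes that add to tails. The neighbours of TTL had a median of 0.40, and with that removed TTL was at 0.17. With their own neighbours' medians removed, AGBL2 was at 0.70, TTLL12 at -0.52 and TTLL11 at -0.91. The part of the neighbourhood was not tested.

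The gamma-tubulin ring complex and augmin, which start and branch microtubules, had 19 genes, of which 18 were tested, 4 higher, 5 lower and 9 not past (median log2 fold change -0.03). TUBG1 and the augmin subunits HAUS6 and HAUS2 fell, HAUS6 with a log2 fold change of -0.32 and HAUS2 with one of -0.35. MZT2A rose with 0.47, but its copy MZT2B is nearly identical and reads may be split between them. The neighbours of MZT2A had a median log2 fold change of 0.53, and with that removed MZT2A was at -0.05. TUBG1, HAUS6 and HAUS2 were then at -0.55, -0.40 and -0.47. The part of the neighbourhood was not tested. The microtubule-associated and severing proteins had 33 genes, of which 26 were tested, 6 higher, 5 lower and 15 not past (median log2 fold change -0.04). CLASP1, which stabilizes growing ends, rose by 0.68, while MAP1B, a microtubule-binding protein of neurons, fell by 0.66 and STMN3, a stathmin that binds free tubulin dimers, by 0.63 on the log2 scale. None of the genes in the 7 lists that passed the test changed 2-fold or more, and neither did any of the 9 tested isotypes.

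**Figure D4:**
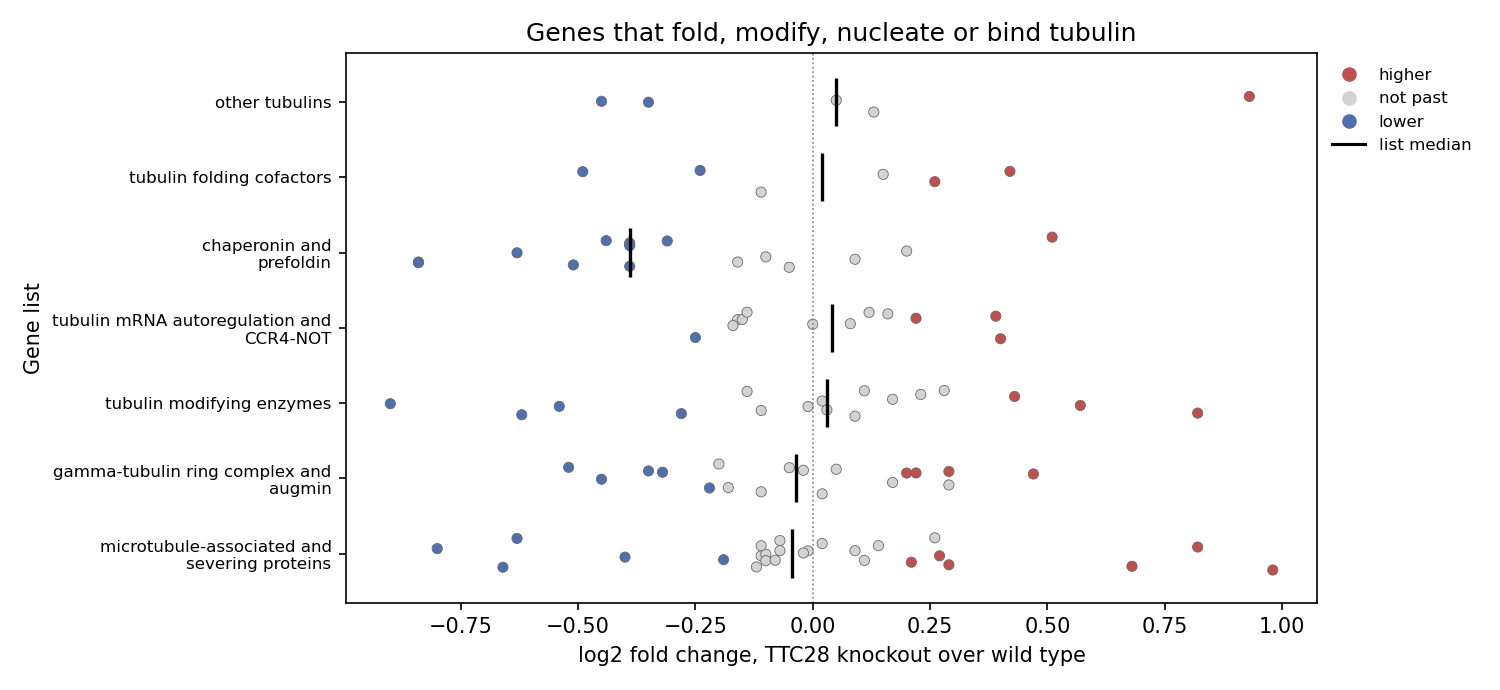
log2 fold change, TTC28 knockout over WT, of the tested genes of 7 lists, 1 point per gene, red where higher, blue where lower and grey where the adjusted p did not pass, with a black bar at each list's median. The chaperonin and prefoldin list has its median at -0.39, and the others lie between -0.04 and 0.05.

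The protein-coding genes whose levels ran most like those of the main isotypes were found by the distance between centred log2 FPKM over the 4 libraries, among 10780 genes. Nearest to TUBA1B were KIRREL2, PLEC and PRRC2A, at distances of 0.0125, 0.0144 and 0.0171 on the log2 scale. Nearest to TUBB were ANP32B, SAMM50 and SNW1, at 0.0104, 0.0128 and 0.0147. With 4 libraries and nearly level genes, such a likeness describes small variation and nothing more.

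The authors' deposited table gives log2 fold changes of 0.62 for TUBA1A, 0.70 for TUBB6, -0.41 for TUBB2A and -0.48 for TUBB2B. In it these 4 of the 10 isotypes have an adjusted p under 0.05, against 20.6% of its 27926 genes with an adjusted p. Those genes include many under the 1 FPKM minimum used here. Of the 13079 genes that met it, 50.3% passed in the edgeR fit, so 20.6% is not a matched background for the isotypes. For TUBB3 the authors' deposited table gives -0.43 with an adjusted p of 0.226.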

How the data were processed

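The 2 TTC28 knockout and 2 WT H1299 libraries were prepared by an Illumina TruSeq RNA protocol, per the labels. The submitters' processing notes name HISAT2 2.0.5 and the hg38 build. No source used here states the counter, its strand setting or the annotation. The authors deposited raw counts per gene and FPKM values scaled by gene length and library size. The deposited group means (a signal of scaled counts, per the file headers) were not used. The authors' deposited log2 fold change and p-value columns come from a test whose tool is not named, per the file headers. No sample column was left unused (0).

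Counts were tested with edgeR 4.0.16 (R 4.3.3; TMM, quasi-likelihood, two-sided, no covariates) in genes that reached 1 FPKM in 2 or more libraries. P-values were adjusted by Benjamini-Hochberg over 13079 genes, with a threshold of 0.05. Shares and pools are sums of FPKM with no test, since 2 against 2 libraries allow no exact permutation p under 0.333. Neighbour medians used 25 tested genes on each side. Sequences, exon overlaps and shared stretches of 50 and 100 bases come from GENCODE 29, in which 99.98% of the genes have the coordinates of the table. The shared stretches leave out non-tubulin genes that overlap the isotype on the genome. Alternatives were DESeq2 1.42.0, limma 3.58.1 on log2(FPKM + 1), other scalings and filters, a replicate block, each library left out, near-identical genes summed and, chosen after seeing the data, main transcript lengths. The tools were tested on simulated data in which only a small part of the genes changed. That setting does not cover a comparison where 50.3% of the tested genes passed. Named genes were the 10 isotypes, TTC28, up to 4 genes of each list with the smallest p, the 3 genes nearest to TUBA1B and to TUBB, and other TUBA or TUBB rows with at least 10 counts, some of which are not reported here; genes that overlap an isotype are named where a row may share their reads, MZT2B as the near-identical copy of a named gene, and TTC5 and SCAPER were added after their values were seen. The isotypes and lists were chosen with earlier results of these data known. Counting error alone does not cover variation between cultures.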

Additional observations from a re-analysis of the deposited data

How the results depend on the processing

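TUBA1A, TUBB6, TUBB2A and TUBB2B kept their direction and passed the test in every alternative that gave a test. Their adjusted p ran from 5.16e-22 to 0.00201, 3.02e-27 to 0.00142, 5.77e-05 to 0.0361 and 1.41e-06 to 0.0343. The number of isotypes past the threshold was 7 on the TPM scale in place of 4, where TUBA1B (log2 fold change -0.21), TUBA1C (-0.25) and TUBB3 (-0.58) also passed. Of all 13079 genes, 7228 passed on that scale in place of 6581, 1924 higher and 5304 lower, around a median log2 fold change of -0.17. On that scale the autoregulation and CCR4-NOT list had 7 genes past in place of 4. With a minimum of 5 FPKM, 4346 genes passed in place of 6581, and 3 modifying enzymes in place of 7, as fewer genes were tested. Leaving out each library in turn gave 2 to 6 folding cofactors and 2 to 5 autoregulation and CCR4-NOT genes past the threshold. The log2 ratio of the alpha pool was 0.03 by counts and -0.05 by TPM, and that of the beta pool -0.09 by TPM; the cause was not tested. Share differences of TUBA1A ran from 8.12 to 9.45 points and of TUBB6 from 4.81 to 4.94 points over the libraries left out. With the replicate number as a block, 7108 genes and 5 isotypes passed, TUBB3 among them (adjusted p = 0.0332, edgeR), and log2 fold changes were -0.40 for TUBB2A and -0.47 for TUBB2B. Libraries with the same number did not deviate together over the tested genes (correlation -0.025). The labels do not say whether the numbers pair the samples, and this value alone cannot settle it. Where a group is left with 1 library, that library is assumed to vary like the others. Depth limits TUBA4A and TUBB3 most.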
